A study of Mus musculus with 3 samples.

Results

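The ligands and adhesion molecules by which a tissue cell can stimulate or restrain a T cell were examined as a set of 10 genes in cultured mouse ocular pigment epithelium: Cd80, Cd86, Icosl, Cd40, Cd274, Pdcd1lg2, Cd276, Cd200, Vcam1 and Icam1. The set was defined by gene symbols, every probe set annotated to 1 of them alone was taken, and 19 probe sets of the 45037 that were not controls, or 10 of 18193 genes, belonged to the set. RNA was measured on 1 array for each of 3 primary cultures, of retinal (RPE), ciliary body (CBPE) and iris (IPE) pigment epithelium, in a series titled for the role of thrombospondin-1 when T cells respond to such cells. The donors of all 3 cultures were C57BL/6 mice of 6 to 8 weeks, and the number of animals behind a culture is not given in the sources used here. RPE was released with trypsin from eyecups without ciliary body and grown in DMEM with 20% serum, while CBPE and IPE were released with Dispase and DNase I and grown in RPMI 1640 with 10% serum. All 3 were kept overnight without serum before RNA was taken, so no group is freshly isolated tissue, and tissue, dissociation and medium cannot be told apart in a comparison with RPE. The sample descriptions give more than 95% cytokeratin-positive cells for RPE and CBPE, with a culture time of 14 days, and more than 99% for IPE, with no time.

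A T cell that meets its antigen also reads accessory signals on the other cell. CD80 and CD86 engage CD28, which drives activation, and CTLA-4, which restrains it, ICOSL engages ICOS, and CD40 receives CD40 ligand from the T cell. CD274 (PD-L1) and PDCD1LG2 (PD-L2) engage the inhibitory receptor PD-1, CD200 acts on the inhibitory receptor CD200R of myeloid and some lymphoid cells, and CD276 (B7-H3) has been described with both stimulatory and inhibitory effects. ICAM1 and VCAM1 hold the T cell in place by binding the integrins LFA-1 and VLA-4, and cytokines that act through NF-κB raise several of these genes in many cell types.

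The regions before the start sites of the genes were read for 7 of the 10 (not Cd86, Cd40 or Vcam1) from RefSeq sequence (GRCm38.p6), and those of the 3 of these with signals above 100 on at least 1 array are printed so that the letters stand beside the values. Each run is the 250 bases before the start, 5′ to 3′ on the strand of the gene, and capitals mark the motifs named after it, on either strand. The Cd200 region is chr16:45409054-45409303 on the minus strand, that of Cd276 is chr9:58555034-58555283 on the minus strand, and that of Icam1 is chr9:21015690-21015939 on the plus strand.
Cd200: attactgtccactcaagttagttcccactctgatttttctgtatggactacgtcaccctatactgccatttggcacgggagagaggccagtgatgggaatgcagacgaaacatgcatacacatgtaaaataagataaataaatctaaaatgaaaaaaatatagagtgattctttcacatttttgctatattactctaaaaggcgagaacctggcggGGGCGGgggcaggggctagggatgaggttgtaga
Cd276: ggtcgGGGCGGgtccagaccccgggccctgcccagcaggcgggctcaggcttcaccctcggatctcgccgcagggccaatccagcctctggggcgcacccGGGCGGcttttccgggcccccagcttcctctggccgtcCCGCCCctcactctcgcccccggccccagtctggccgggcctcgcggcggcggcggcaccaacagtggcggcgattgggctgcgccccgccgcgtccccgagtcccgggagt
Icam1: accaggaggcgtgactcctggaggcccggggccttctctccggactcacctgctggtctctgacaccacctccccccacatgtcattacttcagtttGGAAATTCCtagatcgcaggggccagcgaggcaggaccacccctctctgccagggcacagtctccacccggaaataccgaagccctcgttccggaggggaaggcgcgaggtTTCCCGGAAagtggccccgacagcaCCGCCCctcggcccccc
The Cd200 region held a GC box (GGGCGG) at -34 to -29, counted back from the start site, and had 6 CpG dinucleotides and 42.4% G and C. The Cd276 region held 3 GC boxes and 29 CpG, at 77.6% G and C, and that of Icam1 15 CpG, at 65.2%. Over the 32851 regions of the same length in the table, the median was 6 CpG and 52.4% G and C, and 32.7% held a GC box. The Icam1 region held a κB core (GGAANTTCC) at -153 to -145, a STAT motif (TTCNNNGAA) at -42 to -34 and a GC box at -17 to -12. The STAT motif was present in 7.02% of all regions. The κB core was present in 0.813%, but it was added after the sequences were read, so this share does not measure how rare the match is. The motif searches for the NF-κB consensus, for AP-1 (TGANTCA), for the ISRE and for the TATA box (TATAAA), present in 7.25%, 6.75%, 2.98% and 12.4% of all regions, found nothing in these 3 windows. Among the regions read but not printed, the NF-κB consensus lay in that of Icosl (-111 to -102) and of Pdcd1lg2 (-244 to -235). AP-1 lay in that of Cd80 (-42 to -36). A match to letters describes the sequence and is not a site, and binding was not measured.

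Each signal was judged against the median of its array's non-control probe sets, called the floor, which was 16.8 in RPE, 17.3 in CBPE and 14.5 in IPE. The 27 probe sets for bacterial transcripts that the samples do not contain reached 16.6 in RPE, 20.2 in CBPE and 7.9 in IPE, so a CBPE signal between 17.3 and 20.2 is no higher than these. The probe set brightest on average (mean log2 signal) stood for a gene, which was called different when the signals, set to the floor where lower, differed at least 2-fold and at least 1 was above its floor. With 1 array per culture there is no replicate error, and no test can be made. The only error the table holds is the disagreement of probe sets of 1 gene above 100 on both arrays, a pooled SD of the log2 difference of 0.45 for RPE minus IPE, 0.29 for RPE minus CBPE and 0.49 for CBPE minus IPE, which leaves out the spread between cultures and animals. The geometric mean of the 12 probe sets for spiked hybridisation controls was 1941 in RPE, 3192 in CBPE and 1239 in IPE after the common scaling. Of 9 pigment epithelium markers, 8 were above the floor in RPE, 6 in CBPE and 8 in IPE. Of the 8 measured, 6 were at least 2-fold lower and none higher in RPE than in IPE (median log2 difference -1.49), and 6 were lower and 2, the keratin genes Krt8 and Krt18, higher in CBPE than in IPE (median -2.33). Over all genes, 10.5% were lower and 9.87% higher in RPE than in IPE, and 12.5% lower and 11.8% higher in CBPE than in IPE. Dct, a melanin synthesis gene, was at 286.5 in RPE, 2.0 in CBPE and 1429.1 in IPE, and Tyrp1, another, at 550.0 in RPE, 67.2 in CBPE and 1387.8 in IPE. Against IPE, the direction of Dct and Tyrp1 was opposite to that of Cd200 and Vcam1. Krt8 and Krt18 shared the direction of those 2, with log2 differences of 0.59 and 0.60 in RPE and 2.45 and 1.55 in CBPE. In RPE against CBPE, Dct and Tyrp1 were higher in RPE, as was the brightest Vcam1 probe set, while Cd200 was lower. The part of these marker genes in the differences of Cd200 and Vcam1 was not tested. Rpe65, a defining gene of retinal pigment epithelium, was under the floor on all 3 arrays, with 2.4 in RPE.

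Of the 10 genes, 6 were above the floor in RPE, 7 in CBPE and 6 in IPE, against 64.0%, 65.5% and 63.1% of all genes. Cd80, Cd276, Cd200, Vcam1 and Icam1 were above it on all 3 arrays, which was so for 56.3% of all genes. Icosl, Cd40, Cd274 and Pdcd1lg2 were above it on 1 array each, and Cd86 on none, as were 26.6% of all genes. The shares above the floor were near those of all genes. The members fell into genes far above the floor on at least 2 arrays (Cd276, Cd200, Vcam1 and Icam1) and genes that reached at most 2.13 times the floor.

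**Figure D1:**
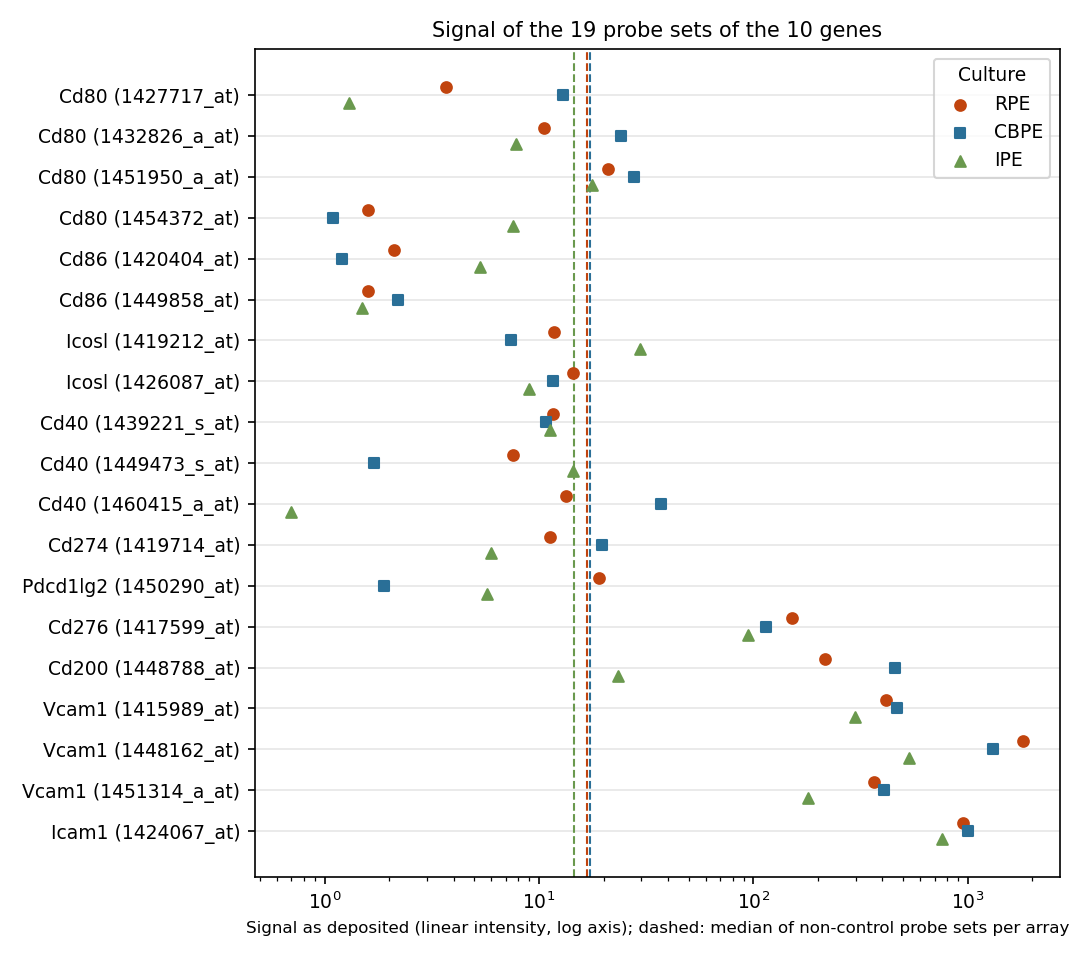
Signal of each of the 19 probe sets (rows, by gene) in RPE (circles), CBPE (squares) and IPE (triangles), 1 array each, on a log axis, with the floor of each array as a dashed line. Vcam1, Icam1 and Cd276 lie right of the floors in every culture, Cd200 does so clearly in RPE and CBPE, and the rows from Cd80 to Pdcd1lg2 lie near the floors or left of them.

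The classical B7 ligands were near or below the floor. Cd86 was measured by 2 probe sets, at signals of 2.1 and 1.6 in RPE, 1.2 and 2.2 in CBPE and 5.3 and 1.5 in IPE. Both lay well under the floor in every culture, so the 3 values have no order. Cd80 was represented by a probe set at 21.0 in RPE, 27.6 in CBPE and 17.7 in IPE. These values were 1.25, 1.6 and 1.22 times the floors, and lay at percentiles 55, 60.5 and 53.3 of all non-control probe sets. CBPE was highest, 1.56-fold above IPE, and RPE was 1.31-fold lower than CBPE and 1.19-fold higher than IPE, all under the 2-fold limit. A further Cd80 probe set passed the floor only in CBPE, at 24.1, against 10.6 in RPE and 7.8 in IPE, and the remaining 2 were under the floor everywhere. With the floor at the 60th percentile the Cd80 difference of CBPE minus IPE, 0.64 on the log2 scale, was -0.091.

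Icosl, the ligand of the T cell receptor ICOS, was above the floor in IPE alone by 1 of its 2 probe sets. That probe set gave 11.8 in RPE, 7.4 in CBPE and 29.5 in IPE, so RPE was at least 1.76-fold and CBPE at least 1.46-fold below IPE. The other gave 14.4 in RPE, 11.6 in CBPE and 9.0 in IPE, all under the floor. With array medians made equal, both differences from IPE passed the 2-fold limit. With the floor at the 60th percentile, the log2 differences were -0.11 for RPE minus IPE and -0.14 for CBPE minus IPE. Averaged over the 2 probe sets, they were -0.30 and -0.26, so the folds above hold only for the floor and probe set used.

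Cd40, a receptor of the tumour necrosis factor family through which T cells activate antigen-presenting cells, was above the floor in CBPE alone, and its probe sets disagreed. One gave 13.3 in RPE, 36.9 in CBPE and 0.7 in IPE, so that RPE was at least 2.2-fold below CBPE, and CBPE at least 2.54-fold above IPE. The other probe sets gave 11.6 and 7.6 in RPE, 10.8 and 1.7 in CBPE and 11.2 and 14.4 in IPE, under the floor in every culture. The first probe set thus stood for Cd40 only through its CBPE signal, the one that differs. Averaged over its 3 probe sets, Cd40 had a log2 difference of -0.41 for RPE minus CBPE and 0.62 for CBPE minus IPE, inside the 2-fold limit.

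The PD-1 ligands had 1 probe set each and exceeded the floor by little. Cd274 was at 11.2 in RPE, 19.7 in CBPE and 6.0 in IPE. The CBPE value was above the floor there but under the 20.2 reached by the bacterial controls, so it was not told apart from the signal of absent transcripts. Pdcd1lg2 was at 19.0 in RPE, 1.9 in CBPE and 5.7 in IPE, and RPE was at least 1.31-fold higher than IPE. The 3 values of Cd274 therefore have no order. Pdcd1lg2 in RPE was at 1.13 times the floor, and neither gene passed the 2-fold limit in any comparison.

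Among the 10 genes, Cd276 was the B7 family member well above the floor in every culture. Its single probe set gave 151.3 in RPE, 114.6 in CBPE and 94.3 in IPE, at 9.01, 6.62 and 6.5 times the floors. RPE was 1.32-fold above CBPE and 1.6-fold above IPE, and CBPE was 1.22-fold above IPE, so no pair reached 2-fold. The log2 difference of CBPE minus IPE, 0.28, was smaller than the probe set SD of 0.49, and ranged between 0.027 with equal medians and 0.65 after quantile normalization. That of RPE minus IPE, 0.68, and that of RPE minus CBPE, 0.40, were larger than the SD of 0.45 and of 0.29.

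Cd200 differed most between the cultures. Its single probe set gave 214.7 in RPE, 457.1 in CBPE and 23.3 in IPE, so both RPE and CBPE were high and IPE was close to the floor, at 1.61 times it. RPE was 9.21-fold and CBPE 19.6-fold higher than IPE, and RPE was 2.13-fold lower than CBPE. The log2 differences were 3.20 for RPE minus IPE, 4.29 for CBPE minus IPE and -1.09 for RPE minus CBPE, and lay at percentiles 99.5, 99.8 and 3.45 among all genes measured in each comparison. With a fixed floor of 100, which lifts the IPE value to 100, the first 2 were 1.10 and 2.19, and all 3 passed the 2-fold limit under each of the 7 alternatives of scaling, floor and probe sets. No other probe set of Cd200 could check these values.

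Among the 10244 genes above the floor on all 3 arrays, Foxc2, which encodes a forkhead transcription factor, was the nearest to Cd200 in pattern, at a Euclidean distance of 0.10 between log2 signals centred over the 3 arrays. Foxc2 was at 176.6 in RPE, 342.3 in CBPE and 17.8 in IPE. Chac1, an enzyme gene of glutathione breakdown, followed at 0.27, with 196.4 in RPE, 320.5 in CBPE and 18.9 in IPE, and Foxc2 was the 1 gene within 0.25. Likeness over 3 arrays is a description of these arrays.

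Vcam1, the ligand of VLA-4, was far above the floor in every culture and lowest in IPE by each of its 3 probe sets. The representing probe set gave 1812.6 in RPE, 1317.9 in CBPE and 534.0 in IPE, a 3.39-fold higher signal in RPE and a 2.47-fold higher signal in CBPE than in IPE. Another gave 366.9 in RPE, 407.0 in CBPE and 179.0 in IPE, which is 2.05-fold and 2.27-fold. The third gave 417.4 in RPE, 467.0 in CBPE and 299.3 in IPE, which is 1.39-fold and 1.56-fold. IPE was thus below both others throughout, and the size of the difference depended on the probe set. The order of RPE and CBPE did not hold: RPE was 1.38-fold above CBPE by the first and below it, at 0.901 and 0.894 times its signal, by the others. Averaged over the 3 probe sets, the log2 differences were 1.09 for RPE minus IPE, 1.04 for CBPE minus IPE and 0.049 for RPE minus CBPE.

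The pattern of the representing Vcam1 probe set was common: 79 genes lay within 0.25 of it, the nearest being Rps25, a ribosomal protein gene, and Psmb9, an immunoproteasome subunit gene, at 0.013 and 0.029. Psmb9 was at 97.3 in RPE, 69.6 in CBPE and 29.0 in IPE.

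Icam1, the ligand of LFA-1, was bright and nearly even. Its single probe set gave 951.0 in RPE, 1001.0 in CBPE and 755.7 in IPE, at percentiles 96.1, 96.2 and 95.5 of the arrays. RPE was 1.26-fold and CBPE 1.32-fold above IPE, and RPE was 1.05-fold below CBPE. All 3 log2 differences, 0.33, 0.41 and -0.074, were smaller than the probe set SD of their comparison, so these arrays give no order of the cultures for Icam1. The single arrays cannot show that the cultures express it alike.

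**Figure D2:**
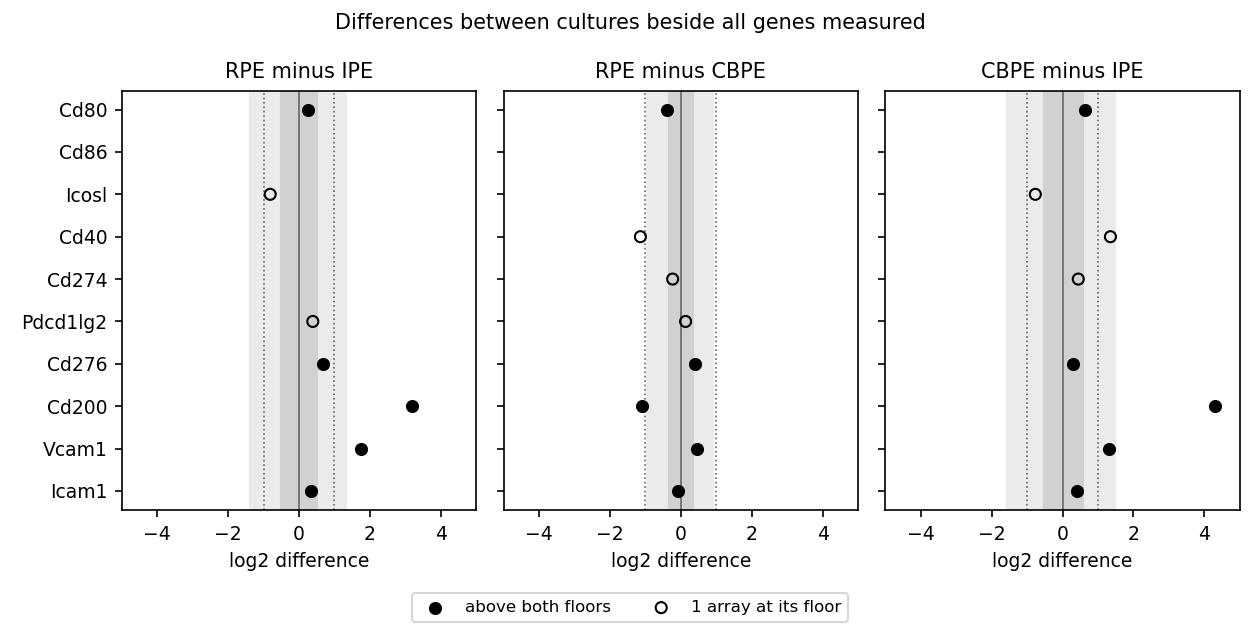
Log2 difference of each gene for RPE minus IPE, RPE minus CBPE and CBPE minus IPE, with filled circles where both arrays were above their floors, open circles where 1 was set to its floor, and no circle where both were. Dark and light bands hold the central 50% and 90% of all genes measured, dotted lines mark 2-fold, and Cd200, at 3.20 and 4.29, lies far outside the bands in both comparisons with IPE.

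Cd200 passed the 2-fold limit in every comparison, Vcam1 in those with IPE and Cd40 in those with CBPE. In RPE against IPE, 2 of the 7 genes that passed the floor in either culture, Cd200 and Vcam1, were at least 2-fold higher, where 9.87% of all 12446 genes measured were, and none was lower, where 10.5% were. Their median log2 difference was 0.39, beside 0.017 over all genes. In RPE against CBPE, none of 8 was at least 2-fold higher, where 3.75% of 12860 genes were, and 2, Cd200 and Cd40, were lower, where 4.26% were, with a median of -0.15 beside -0.0020. In CBPE against IPE, 3 of 8, Cd200, Vcam1 and Cd40, were higher, where 11.8% of 12831 genes were, and none was lower, where 12.5% were, with a median of 0.54 beside 0.039. As deposited, the 5 genes above the floor on all 3 arrays had their lowest signal in IPE, by any size, as had 38.5% of the 10244 genes above it on all 3. Of these differences, Cd80 and Icam1 in RPE minus IPE and Cd276 and Icam1 in CBPE minus IPE were smaller than the probe set SD. The comparisons share arrays, so those with IPE are not independent of each other. With equal array medians the median of all genes was -0.20 for RPE minus IPE and -0.22 for CBPE minus IPE, and the split of calls over all genes in RPE against IPE was 782 higher and 1920 lower, against 1228 and 1303 as deposited. In CBPE against IPE that split was 945 and 2369, against 1513 and 1609. After quantile normalization it was 1392 and 1010 in RPE against IPE, 1710 and 1222 in CBPE against IPE, and 459 and 703 in RPE against CBPE, against 482 and 548 as deposited.

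**Figure D3:**
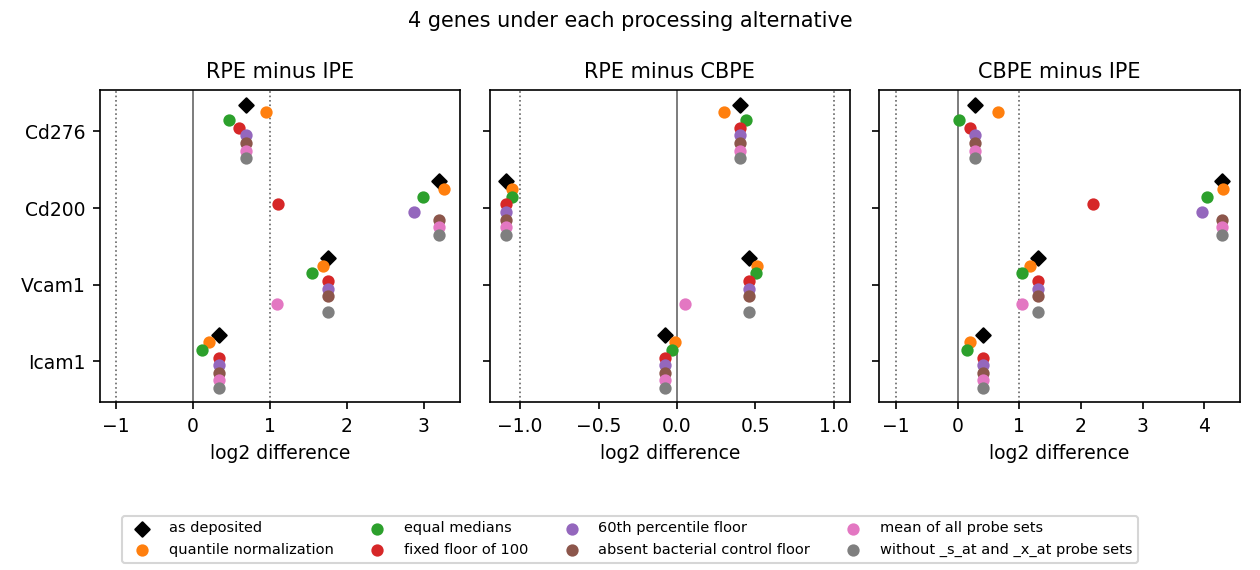
Log2 differences of Cd276, Cd200, Vcam1 and Icam1 in the 3 comparisons, as deposited (diamonds) and under 7 alternatives of scaling, floor and choice of probe sets (circles), with dotted lines at 2-fold. Cd200 keeps its sign and stays outside 2-fold throughout, with a low of 1.10 in RPE minus IPE, and the circle of Vcam1 near 0 in RPE minus CBPE is the mean of its probe sets.

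Other ligands of T cell co-signalling included genes at least 2-fold higher and genes at least 2-fold lower in each comparison with IPE, and none 2-fold higher in RPE than in CBPE. Of 21 with a probe set among 23 listed, 13 passed the floor in at least 1 culture. Among 12 measured in RPE against IPE, 1 was at least 2-fold higher and 4 lower, and the median log2 difference was -0.50. In RPE against CBPE none of 13 was higher and 4 were lower, also with equal medians and after quantile normalization. The median as deposited was -0.35. With probe sets averaged, Nectin2 (-0.70) and Vsir (0.043) were inside the 2-fold limit there. In CBPE against IPE 4 of 11 were higher and 2 lower, with a median of -0.22. With equal medians 3 were higher and 4 lower (median -0.48), and after quantile normalization 3 and 2. With probe sets averaged, Vsir (0.94) was inside the 2-fold limit in CBPE minus IPE. Over all genes, 9.87% were higher and 10.5% lower in RPE against IPE. These shares were 3.75% and 4.26% in RPE against CBPE, and 11.8% and 12.5% in CBPE against IPE. Lgals9, which encodes galectin-9, a lectin that can bind TIM-3 on T cells, was at 468.4 in RPE, 476.4 in CBPE and 1054.4 in IPE, so IPE was highest. Ildr2, an immunoglobulin family gene whose protein has been described as a T cell inhibitor, was 4.58-fold lower in RPE and 3.95-fold lower in CBPE than in IPE. Nectin2, a ligand of DNAM-1 and TIGIT, was at 134.6 in RPE, 324.1 in CBPE and 377.8 in IPE, and 1 of its 2 probe sets reached 2-fold in each comparison with RPE. Tnfsf9, the 4-1BB ligand, was at 19.5 in RPE, 41.5 in CBPE and 79.8 in IPE.

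Toward the other cultures, Cd24a, a small membrane glycoprotein gene, exceeded its IPE signal 4.75-fold in RPE and 4.6-fold in CBPE, and all 3 of its probe sets reached 2-fold in both. Vsir, which encodes the inhibitory ligand VISTA, was at 75.7 in RPE, 159.6 in CBPE and 44.7 in IPE. The mean of its 2 probe sets placed RPE and CBPE level, with a log2 difference of 0.043, against -1.08 by the brighter. Icam2, an LFA-1 ligand of endothelium and leukocytes, was at 18.6 in RPE, 83.4 in CBPE and 10.4 in IPE, so CBPE was at least 5.75-fold above IPE.

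**Figure D4:**
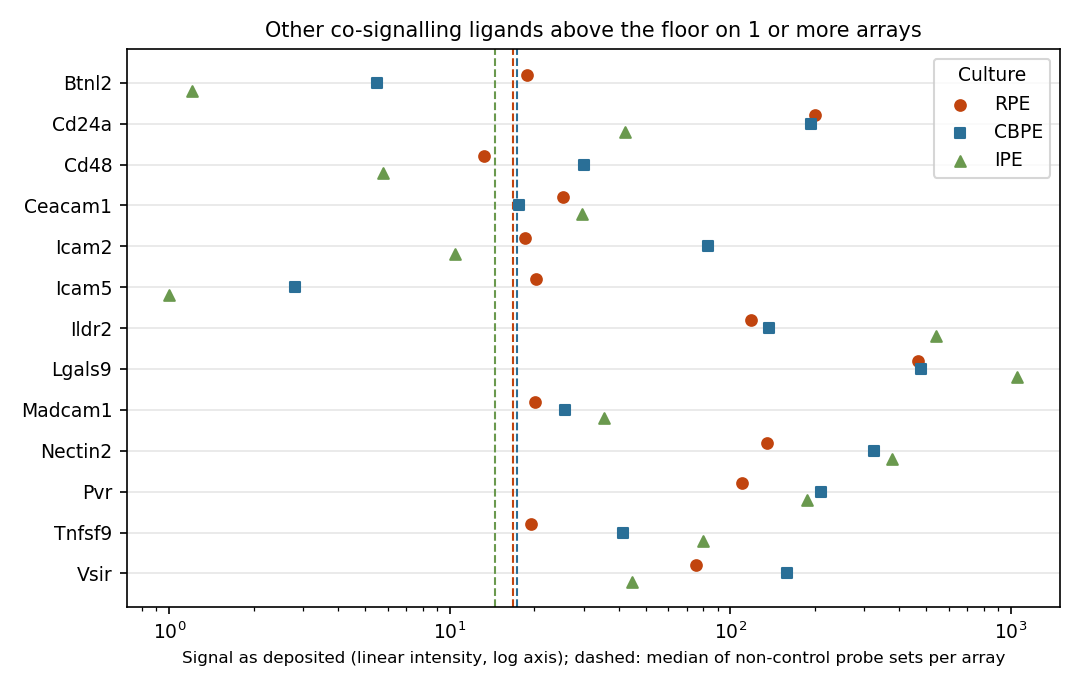
Signals of the 13 other co-signalling ligands above the floor on at least 1 array, in RPE (circles), CBPE (squares) and IPE (triangles), 1 array each, on a log axis, with the floors dashed. Ildr2, Lgals9 and Tnfsf9 are highest in IPE, Icam2 and Vsir in CBPE, and Cd24a is lowest in IPE.

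Of the 11 genes for the receptors and integrin subunits that T cells use to read the 10 ligands, 5 passed the floor in at least 1 culture, and Cd28, Ctla4, Pdcd1, Icos, Cd200r1 and Itgal were under it on all 3. Itgb1, the β1 integrin gene, which most adherent cells express, was at 907.1 in RPE, 926.2 in CBPE and 1958.9 in IPE, and 2 of its 4 probe sets above the floor reached 2-fold in each comparison with IPE. In CBPE against IPE, 3 of the 4 shared the direction. With probe sets averaged, Itgb1 was inside the 2-fold limit, at -0.54 for RPE minus IPE and -0.51 for CBPE minus IPE. Itgb2, the β2 integrin gene of leukocytes, was at 11.4 in RPE, 69.6 in CBPE and 3.6 in IPE, so RPE was at least 4.14-fold below CBPE. Of 4 receptor genes measured, 1 was lower and none higher in each of RPE against IPE and RPE against CBPE, and 1 was higher and 1 lower in CBPE against IPE.

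All 13 measured genes of 16 listed for the interferon-γ and NF-κB pathways, which can induce Icam1, Vcam1, Cd40 and Cd274, were above the floor on all 3 arrays. In RPE against IPE, none was at least 2-fold higher and 2 were lower, and the median of -0.18 was 0.069 after quantile normalization. In CBPE against IPE, none was higher and 5 were lower (median -0.39), and in RPE against CBPE 1 was higher and none lower (median 0.12). Over all genes, 9.87% were higher and 10.5% lower in RPE against IPE. These shares were 11.8% and 12.5% in CBPE against IPE, and 3.75% and 4.26% in RPE against CBPE. Rela, an NF-κB subunit gene, was at 210.6 in RPE, 260.4 in CBPE and 589.1 in IPE. Jak1 and Jak2, kinases of the interferon receptors, had signals 2.4-fold and 2.22-fold lower in CBPE, set against IPE. After quantile normalization Jak2 was inside the limit, at a log2 difference of -0.81, and the median of the list in CBPE minus IPE was -0.77. Ifngr2, an interferon-γ receptor chain, was at 275.1 in RPE, 114.5 in CBPE and 293.9 in IPE, but its other probe set did not share that direction. Irf1, a transcription factor gene induced by interferon-γ, was at 369.0 in RPE, 301.4 in CBPE and 360.8 in IPE. Nfkbia, a feedback inhibitor gene of NF-κB, was at 2807.7 in RPE, 2579.0 in CBPE and 3386.4 in IPE.

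Several marker lists of other cell types also differed between the cultures, not all in the direction of the ligands. Of 16 macrophage and leukocyte markers, 8 were above the floor in RPE, 12 in CBPE and 6 in IPE. Their signals summed to 591.9, 2686 and 404. Ptprc, the pan-leukocyte gene, and Itgam were under the floor on all 3, as were C1qa and C1qc. In CBPE against IPE, 9 of 12 measured markers were at least 2-fold higher and none lower (median log2 difference 1.97). Of all genes, 11.8% were higher and 12.5% lower there. In RPE against CBPE, none of 12 was higher and 9 were lower (median -1.55), beside 3.75% and 4.26% of all genes. In RPE against IPE, 2 of 9 were higher and none lower (median 0.60). Lyz2 was at 231.6 in RPE, 1288.4 in CBPE and 130.9 in IPE. Of 10 endothelial markers, 4 were above the floor in RPE, 9 in CBPE and 4 in IPE. Their signals summed to 383.7 in RPE, 1724 in CBPE and 911.9 in IPE, and 1 gene, Emcn, made up 211.2, 1114.8 and 745.1 of these sums. Cdh5, the endothelial cadherin gene, was at 16.0 in RPE, 108.3 in CBPE and 7.8 in IPE, whereas Tek, a receptor gene, was at 52.1 in RPE, 72.9 in CBPE and 9.6 in IPE. The sums of both lists were highest in CBPE, as were those of the dendritic cell, pericyte and fibroblast lists given below. Cd200 was also highest in CBPE. Cd40 was too, but its probe set stood for it only through the CBPE signal. The endothelial sum, most of it Emcn, was lower in RPE than in IPE, but the list did not share that direction. Of 5 endothelial genes measured in RPE against IPE, 1 was at least 2-fold higher and 1 lower, with a median log2 difference of 0.19. Over all genes, 9.87% were higher and 10.5% lower there. Dendritic cell markers were above the floor for 0 of 5 in RPE, 2 in CBPE and 1 in IPE, summing to 25.3, 54.7 and 47.3. Of 6 T cell markers 1, Cd8a, and of 3 B cell markers none was above it on any array, with sums of 37.2 and 16.1 in RPE, 40.4 and 16.8 in CBPE and 41.8 and 7.9 in IPE.

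Pericyte and smooth muscle markers summed to 17680 in RPE, 27120 in CBPE and 10840 in IPE, mostly from Acta2 and Tagln, with 7, 7 and 5 of 7 above the floor. Their members did not share a direction. Rgs5, a pericyte gene, was at 1415.9 in RPE, 3973.5 in CBPE and 10.4 in IPE, and Myh11, a smooth muscle myosin gene, at 40.0 in RPE, 22.1 in CBPE and 99.4 in IPE. Of the 7, 2 were higher and 1 lower in RPE against IPE and 3 higher and 1 lower in CBPE against IPE, and the median of RPE minus IPE, 0.36, was -0.069 after quantile normalization. Fibroblast markers, all 7 above the floor on each array, summed to 31260 in RPE, 43320 in CBPE and 22910 in IPE, mostly from 3 collagen genes. In RPE against IPE 2 were higher and 2, Dcn and Pdgfra, lower. In CBPE against IPE 4 were higher and 1 lower with a median of 1.13, against 1 and 1 with a median of 0.28 after quantile normalization. Over all genes as deposited, 9.87% were higher and 10.5% lower in RPE against IPE, and 11.8% and 12.5% in CBPE against IPE. In these bulk cultures fewer cells of a type and less RNA per cell cannot be told apart, and the part of other cell types in the differences of Cd200, Vcam1 and Cd40 was not tested.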

How the data were processed

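Biotin-labelled RNA of 3 primary cultures (RPE, CBPE and IPE, grouped by their titles) was measured on 1 Affymetrix array each. Per the labels' protocols, cDNA was primed with oligo-dT from 1 µg of RNA and transcribed in vitro. The authors deposited linear intensity values for 45101 probe sets, 64 of them controls, with a 2% trimmed mean of 100.001 on every array, which shows a common scaling. The software and build were not given in the sources used here. Spot-level values were not used here, and the number of arrays limits the precision.

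Gene symbols came from the platform annotation of 2016 checked by gene identifier against RefSeq (GRCm38.p6): 34945 probe sets had 1 gene, 932 several (not used) and 9160 were unlisted. Signals were set to the floor, the median of each array's non-control probe sets, then taken to log2. Where 1 array was at its floor, a fold was taken over that floor, or over the 20.2 of the absent bacterial controls in CBPE. A list's medians cover its members that passed the floor in either culture compared. All 10 genes are described. Of other lists, up to 4 members at least 2-fold different per comparison were chosen for naming by mean signal, but not all of these are named. The 2 genes nearest in pattern to a differing gene above all 3 floors are named too. Further genes (Irf1, Nfkbia, Tnfsf9 beside IPE, receptor and marker genes) were named after their values were seen, and the κB core motif was added after the sequences were read. The genes and lists were chosen with earlier results of these data known. Alternatives were quantile normalization, equal medians, floors at 100, at the 60th percentile and at the bacterial controls, the mean of a gene's probe sets, no _s_at or _x_at probe sets, and a 1.5-fold limit. The calling was tested on simulated data. Python 3.11.15, numpy 2.4.6 and pandas 2.3.3 were used.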

Additional observations from a re-analysis of the deposited data

How the results depend on the processing

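Of 143 log2 differences of single genes recomputed under 7 alternatives, 129 moved by less than the SD between probe sets and 14 by more, and no difference of 2-fold or more changed sign. Cases where Cd80, Icosl, Cd40, Cd274 or Pdcd1lg2 no longer passed the floor in either culture compared are not among the 143. The SD comes from probe sets above 100, while these 5 genes lie near the floor. Genes above the floor numbered 4 in CBPE and 2 in IPE with a fixed floor of 100, against 7 and 6 as deposited, since it lies above the dim genes by construction. In RPE against CBPE, 1 gene in place of 2 was at least 2-fold lower with the fixed floor of 100, with the floor at the 60th percentile and with all probe sets averaged, where Cd40 no longer counted. In RPE against IPE and in CBPE against IPE, 1 gene in place of none, Icosl, was lower with equal medians and with the 1.5-fold limit. In CBPE against IPE, 2 genes in place of 3 were at least 2-fold higher with the fixed floor of 100, the 60th percentile floor and averaged probe sets. Cd40 was again the gene lost. All other counts were within 1.5 times the value as deposited. Cd200 ranged from 1.10 to 3.26 in RPE minus IPE and from 2.19 to 4.31 in CBPE minus IPE, lowest with the fixed floor. Over all genes, the fixed floor of 100 left 633 higher and 603 lower in RPE than IPE (1228 and 1303 as deposited), 117 and 153 in RPE than CBPE (482 and 548) and 742 and 770 in CBPE than IPE (1513 and 1609). With probe sets averaged 268 were higher and with the 60th percentile 359 lower in RPE than CBPE, and with equal medians 782 and 945 were higher in RPE and in CBPE than IPE. No paired analysis was possible because each culture has 1 array. The single array per culture limits every value: the CBPE signal of Cd274 is not told apart from that of absent transcripts, and a difference cannot be separated from that of 1 culture or hybridisation.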
